A study of Mus musculus with 9 samples.

Results

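The genes described here encode the SR proteins, the hnRNPs and a group of related regulators of alternative splicing in colonic intestinal epithelial cells (IECs). They were taken from the count table by name: symbols made of Srsf and a number, symbols that begin with Hnrnp, and Tra2a, Tra2b, Ptbp1, Ptbp2, Ptbp3, Esrp1, Esrp2, Rbfox2, Mbnl1 and Mbnl2. The rule used no measured value and found 41 of the 46095 symbols, 11 Srsf genes, 20 Hnrnp genes and 10 others. Of the 41, 40 passed the filter on low counts and were tested, and Srsf12 did not.

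SR proteins carry RNA-binding domains and a tail rich in serine and arginine. They bind exons and usually favour their inclusion, and the SRPK and CLK kinases phosphorylate that tail. The hnRNPs coat nascent transcripts and often oppose the SR proteins at an exon, while tissue-restricted factors such as ESRP1 and ESRP2 maintain the epithelial pattern of splicing. SETD2 places the trimethyl mark on lysine 36 of histone H3 along transcribed gene bodies, and readers of this mark are known to bring the PTB protein and SR proteins to nascent transcripts. HNRNPL is also known to bind SETD2 itself. Many of these genes hold their own level steady through exons or introns that send the transcript to nonsense-mediated decay. The counts are summed per gene, so they measure the mRNA level of the splicing factors and not the splicing of any transcript.

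RNA was sequenced from IECs that EDTA had released from the colon of 4 Smad4 Vil-KO mice and 5 Smad4 Vil-KO;Setd2 Vil-KO mice, called double-knockout mice below. Both genotypes were on the C57BL/6J background and lacked Smad4, a transducer of TGF-beta and BMP signals, through Cre recombinase driven by the Villin promoter, which is active in the epithelium of small intestine and colon alike. The double-knockout mice also lacked Setd2 in these cells, so the comparison asks what the loss of Setd2 added to the loss of Smad4. All mice had received the carcinogen azoxymethane (AOM, 10 mg/kg) at 8 weeks of age and 1 course of 2% dextran sodium sulphate (DSS, 5 days), and IECs were collected at 10 days. No mouse with Smad4 intact was among the libraries.

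The total was 12487129 to 17120202 counts per library, and values are CPM (counts scaled to the library total) adjusted by the TMM factors of edgeR. Setd2 ranged over 99.0 to 120 CPM in the Smad4 Vil-KO libraries and 53.8 to 86.9 CPM in the double-knockout libraries, a log2 fold change of -0.77 (SE 0.15, adjusted p = 0.00756). Smad4, deleted in both genotypes, was at 54.2 to 92.6 CPM and 38.2 to 114 CPM, and a count summed over a gene keeps reads from exons outside a deleted part. Libraries of 1 genotype differed beyond sampling noise for every pair (chi-square per gene 10 to 70.1), and double-knockout replicates 1 and 2 stood apart from replicates 3 to 5 (46.5 to 70.1, against 10 to 29.6 among the latter 3). Replicates 1, 2 and 5 of the double knockout held 3857 to 4907 counts of Y-linked genes and the other 6 libraries at most 28, so Y-linked signal occurred in that genotype alone. Epithelial markers summed to 12210 to 14030 CPM and 11430 to 13450 CPM, with 0 of 7 called. None of the 11 leukocyte markers (sums of 56.0 to 156 CPM and 51.5 to 116 CPM) or of the 6 tested stromal ones was called. Stromal markers summed to 21.9 to 40.2 CPM and 28.2 to 78.2 CPM, with a median log2 fold change of 0.52. Of the 6, 3 were higher and 0 lower at an unadjusted p under 0.05, against 30.6% of all genes in either direction. Of 2 tested markers of neurons and glia 1 was called, Elavl4, which rose (log2 fold change 2.54) on low levels of at most 3.01 CPM. It had 3 to 8 counts in Smad4 Vil-KO libraries and passed the filter on low counts through the double knockout. Of 10 markers of small-intestinal enterocytes 8 were tested and 7 rose, among them Mttp (log2 fold change 4.53), Enpep (5.84), Sis (5.75) and Npc1l1 (5.24). The markers summed to 211 to 268 CPM in the Smad4 Vil-KO libraries and 485 to 1086 CPM in the double-knockout libraries, where replicate 5 was lowest. Apoa1 was at 0 counts in all 4 Smad4 Vil-KO libraries and Npc1l1 at 1 to 12. Both passed the filter on low counts through the double knockout, so the 7 of 8 includes genes tested only because they were high there. Of 7 goblet cell markers 1 was called, the mucin Muc2, which fell (log2 fold change -1.62), and the sums of the 7 overlapped, at 11320 to 30230 CPM and 4158 to 13070 CPM. Both endocrine markers, Chga and Chgb, rose (log2 fold change 1.87 and 1.58). In bulk RNA, fewer cells of a type and less RNA per cell cannot be told apart.

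Of all 14593 genes tested, 13.3% were called between the genotypes (edgeR's quasi-likelihood test, Benjamini-Hochberg adjusted p under 0.05), 6.76% higher and 6.54% lower in the double knockout. Among the splicing factors, 2 of 40 (5.0%) were called, Hnrnpab and Hnrnpd, and both were higher in the double knockout, while 0 of 40 were lower. Restricted to a mean level of 20 CPM or more, the shares were 13.4% of 7647 genes and 5.13% of 39 splicing factors. At an unadjusted p under 0.05 there were 8 splicing factors higher and 2 lower, against 30.6% of all genes in either direction. The genotypes did not overlap, with the double knockout higher, for 3 of the 40 (7.5%, against 8.34% of all genes), namely Hnrnpab, Hnrnpd and Hnrnpk, and with it lower for 2 (5.0%, against 8.87%), Srsf9 and Esrp2. DESeq2 called 7 splicing factors higher and 0 lower, against 10% and 9.13% of all genes, and limma-voom 5 higher and 1 lower, against 9.6% and 10.4%. These tools called more genes in all, 2792 and 2924, against 1941. Both called Hnrnpab, Hnrnpd, Hnrnpm, Hnrnpu and Mbnl1 higher, DESeq2 alone also Hnrnpk and Ptbp3, and limma-voom called Srsf11 lower.

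The changes of the splicing factors were small. Their log2 fold changes ran from -0.32 to 0.47 with a median of 0.06, against -0.00 over all genes, and the median absolute log2 fold change was 0.13, against 0.17 over genes of at least 20 CPM and 0.23 over all genes. For 34 of 40 (85.0%) the 95% interval of the fold change lay within 1.5-fold in either direction, against 49.2% of all genes. At a mean of at least 20 CPM these shares were 87.2% and 75.5%. The 6 whose interval passed 1.5-fold were Hnrnpab, Hnrnpd, Mbnl1, Ptbp2, Srsf1 and Hnrnph3. The spread between mice was like that of other genes, with a median coefficient of variation of 7.17% in Smad4 Vil-KO and 11.8% in double-knockout mice for the splicing factors at 20 CPM or more, against 7.82% and 12.5% for all such genes. In sum the 41 genes took 0.809% to 0.915% of the counts of a Smad4 Vil-KO library (0.865% ± 0.0432, SD, n = 4) and 0.885% to 1.08% of a double-knockout library (0.955% ± 0.0733, SD, n = 5), ranges that overlap. By family, 4 of 10 Srsf genes had a fold change above 1 and 6 below (median log2 fold change -0.02). Of the 20 Hnrnp genes 14 were above and 6 below (median 0.09), and of the other 10 genes 7 were above (median 0.09).

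**Figure D1:**
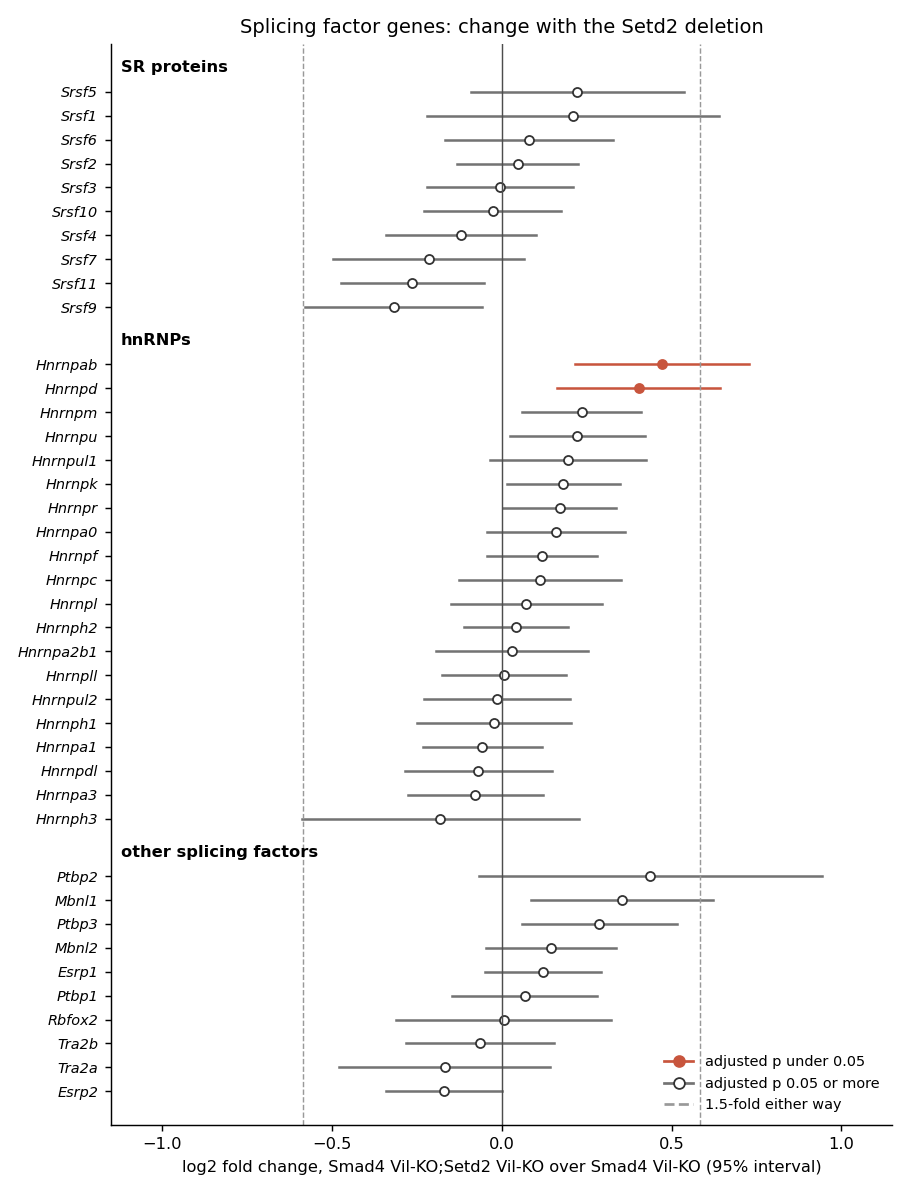
Log2 fold change of the 40 tested splicing factor genes in Smad4 Vil-KO;Setd2 Vil-KO over Smad4 Vil-KO IECs (horizontal axis), by family, with points for estimates and bars for 95% intervals (edgeR, n = 4 and 5 libraries). Filled points mark the 2 genes called, Hnrnpab and Hnrnpd, dashed lines mark 1.5-fold, and 34 intervals lie within them.

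Levels between genes were compared per kb of annotated exons. In Smad4 Vil-KO libraries the highest levels belonged to Hnrnpa2b1 (159 CPM per kb), Hnrnpab (144), Srsf2 (109), Srsf5 (91.7), Hnrnpf (86.7) and Ptbp1 (75.5). Ptbp2, the PTB paralog known from neurons, was far lower (1.93 CPM per kb) than Ptbp1 and Ptbp3 (52.7). Esrp1 stood at 56.8 CPM per kb and Esrp2 at 22.5. Srsf1, the first SR protein described and widely expressed, was counted at only 1.11 CPM per kb, with 86 to 114 counts per library, and Srsf12 had 0 to 4 counts. No near-identical copy of Srsf1 was found among annotated transcripts. The alignment and counting settings that could bear on this value are not given in the sources used here.

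**Figure D2:**
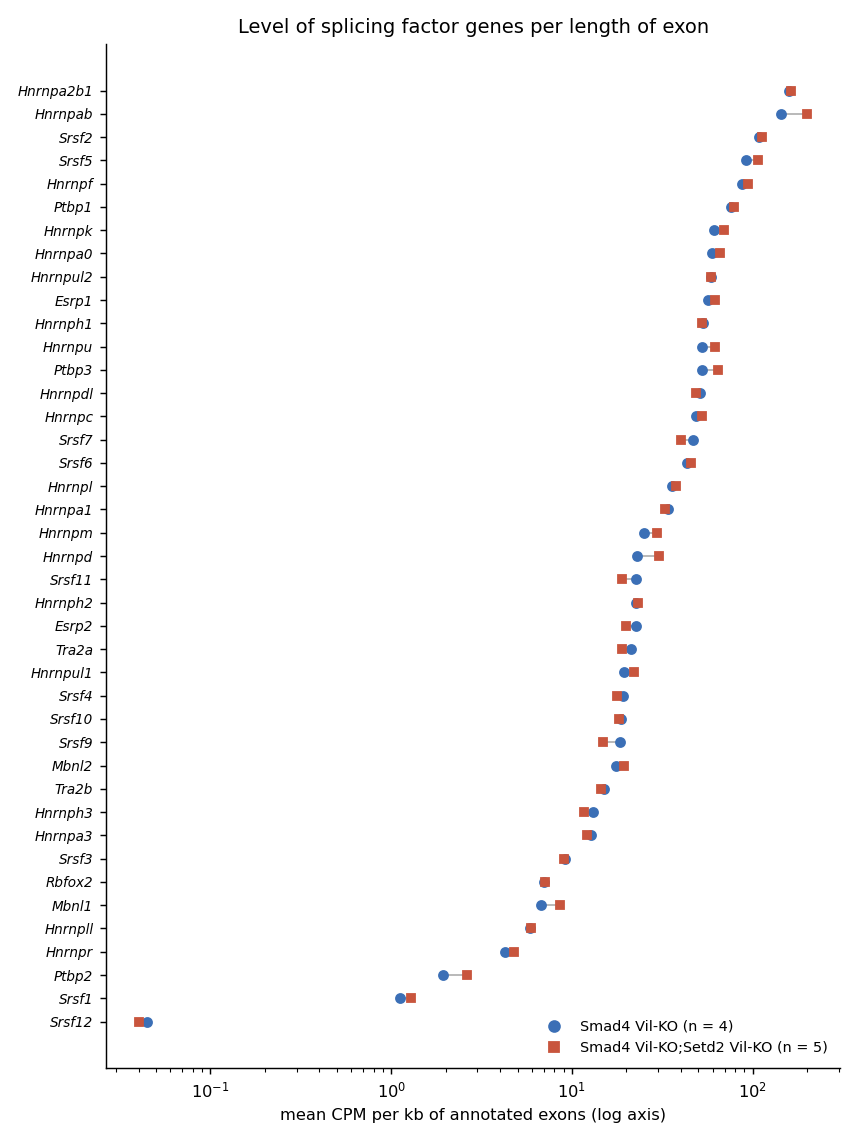
Mean level of the 41 splicing factor genes per kb of annotated exons in Smad4 Vil-KO (circles, n = 4) and double-knockout libraries (squares, n = 5), on a log axis in CPM per kb. Hnrnpa2b1 and Hnrnpab are highest, Srsf1 and Srsf12 lowest, and the 2 genotypes lie close together for nearly every gene.

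Hnrnpab encodes an hnRNP of the A/B type that binds RNA in nucleus and cytoplasm, and its gene lies at chr11:51600100-51606847 on the minus strand (GRCm38). Its level in the 4 Smad4 Vil-KO libraries was 373.5, 427.5, 401.5 and 401.1 CPM, and in double-knockout replicates 1 to 5 it was 716.9, 516.1, 506.6, 542.0 and 498.3 CPM. All 5 double-knockout values lay above the other 4, and replicate 1 lay far above its group. The means were 400.9 ± 22.0 (SD, n = 4) and 556 ± 91.4 CPM (SD, n = 5). The difference was 1.39-fold or 0.47 on the log2 scale (SE 0.12, edgeR adjusted p = 0.0240, 95% interval of the fold 1.16 to 1.66). Without double-knockout replicates 1 and 2 it was 0.37 (adjusted p = 0.0128). In the libraries without Y-linked counts alone it was 0.39 (adjusted p = 0.014). With a term for Y-linked counts it was 0.39 (adjusted p = 0.125) and with a replicate block 0.51 (adjusted p = 0.0542). The call was also lost without Smad4 Vil-KO replicate 1 (0.44, adjusted p = 0.0697), 3 (0.48, 0.0701) or 4 (0.47, 0.0608).

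Hnrnpd encodes AUF1, a protein that binds AU-rich elements of mRNAs and is known for promoting their decay. The gene lies at chr5:99955935-99978938 on the minus strand. It was measured at 167.6, 163.6, 163.7 and 177.1 CPM in Smad4 Vil-KO libraries and at 259.6, 250, 207.5, 215.4 and 177.8 CPM in double-knockout libraries. Replicates 1 and 2 of the double knockout were highest, and replicate 5 lay just above the highest Smad4 Vil-KO value. The means of 168 ± 6.37 and 222 ± 33.2 CPM (SD, n = 4 and 5) gave a log2 fold change of 0.40 (SE 0.11, edgeR adjusted p = 0.0338), 1.32-fold (95% interval 1.12 to 1.56). In the libraries without Y-linked counts alone it was 0.34 (adjusted p = 0.0158). Without double-knockout replicates 1 and 2 it was 0.26 (adjusted p = 0.0616), and with a term for Y-linked counts 0.33 (adjusted p = 0.158). The call was lost without any single Smad4 Vil-KO library (0.41, 0.39, 0.39 and 0.42 for replicates 1 to 4, with adjusted p = 0.0820, 0.0871, 0.0977 and 0.0621). It was lost too without double-knockout replicate 1 (0.34, adjusted p = 0.0528), 2 (0.36, 0.0617) or 4 (0.42, 0.0571). Double-knockout replicate 5, lowest for Hnrnpd, also had the lowest sum of enterocyte markers (485 CPM), and replicate 1, highest for both genes, had the highest sum of 14 proliferation markers (2279 CPM, against 1379 to 1752 in the other 8 libraries). The part of these in the results was not tested.

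The promoters of Hnrnpab and Hnrnpd are shown because these are the 2 splicing factor genes that edgeR called over the 9 libraries. The sequences are the 250 bases before the RefSeq start site in GRCm38.p6, read 5′ to 3′ on the coding strand, chr11:51606882-51607131 for Hnrnpab and chr5:99978939-99979188 for Hnrnpd. Capitals mark matches on either strand to exact words, none of which overlap here: CCAAT (the word that NF-Y binds), CACGTG (an E-box, the same on both strands), CCGGAAG (an ETS word), GGGCGG (the GC box) and TATAAA (the TATA box).
Hnrnpab: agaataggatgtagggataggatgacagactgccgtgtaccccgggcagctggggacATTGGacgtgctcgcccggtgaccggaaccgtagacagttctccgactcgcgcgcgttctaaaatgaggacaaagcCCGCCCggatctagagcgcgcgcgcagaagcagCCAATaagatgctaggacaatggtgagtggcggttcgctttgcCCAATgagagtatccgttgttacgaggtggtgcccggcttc
Hnrnpd: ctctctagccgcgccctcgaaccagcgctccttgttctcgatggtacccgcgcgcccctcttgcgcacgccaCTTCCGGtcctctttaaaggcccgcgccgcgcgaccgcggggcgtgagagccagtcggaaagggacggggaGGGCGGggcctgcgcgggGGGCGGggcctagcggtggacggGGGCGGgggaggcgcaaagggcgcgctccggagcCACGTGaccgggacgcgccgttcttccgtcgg
The Hnrnpab stretch held 3 CCAAT words and 1 GC box and was 58.4% GC, and the Hnrnpd stretch held 3 GC boxes, 1 ETS word and 1 E-box and was 74.4% GC. The GC box was the 1 word that occurred in both. Over the 48 RefSeq promoters of 35 splicing factor genes, the GC box was present in 79.2%, against 32.7% of all 32851 promoters of this length. The CCAAT word was present in 24 of the 48 (33.8% of all promoters), the ETS word in 18.8% (6.91%), the E-box in 10.4% (6.02%) and the TATA box in 8.33% (12.4%). All promoters were counted whatever the level of their gene, and several can belong to 1 gene. A match describes the letters only.

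The next hnRNPs by p did not pass the adjusted threshold in edgeR, whereas DESeq2 called Hnrnpm (adjusted p = 0.0219), Hnrnpk (0.0375) and Hnrnpu (0.0424), and limma-voom Hnrnpm (0.0298) and Hnrnpu (0.0317). Hnrnpm, whose protein is known to oppose the ESRP proteins at some epithelial exons, was at 203.2, 198.0, 210.1 and 184.3 CPM and at 256.9, 210.1, 229.1, 244.5 and 229.9 CPM in the double knockout (log2 fold change 0.24, SE 0.08, adjusted p = 0.0746). The groups met at 210.1 CPM. Without double-knockout replicates 1 and 2 its adjusted p was 0.0498 at a log2 fold change of 0.24, and it was also called without replicate 2 alone (0.27, adjusted p = 0.0475). Hnrnpu, an abundant nuclear scaffold protein, ran from 567.0 to 649.5 CPM and from 625.5 to 771.8 CPM (0.22, SE 0.09, adjusted p = 0.124). Hnrnpk, a KH-domain protein, was separated between the genotypes, at 385.8 to 410.3 CPM and 417.7 to 494.9 CPM, with a log2 fold change of 0.18 (SE 0.08, adjusted p = 0.134). Hnrnpr ran from 87.1 to 104.9 CPM and from 100.8 to 113.9 CPM (0.17, SE 0.08, adjusted p = 0.154). Hnrnpa2b1, the most abundant per kb in Smad4 Vil-KO libraries, differed by 0.03, and Hnrnpl, the SETD2-binding member, was at 199.2 to 223.1 CPM and 194.2 to 270.4 CPM with a log2 fold change of 0.07 (SE 0.10, 95% interval of the fold 0.903 to 1.23). The remaining 12 Hnrnp genes had log2 fold changes from -0.18 (Hnrnph3) to 0.20 (Hnrnpul1).

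**Figure D3:**
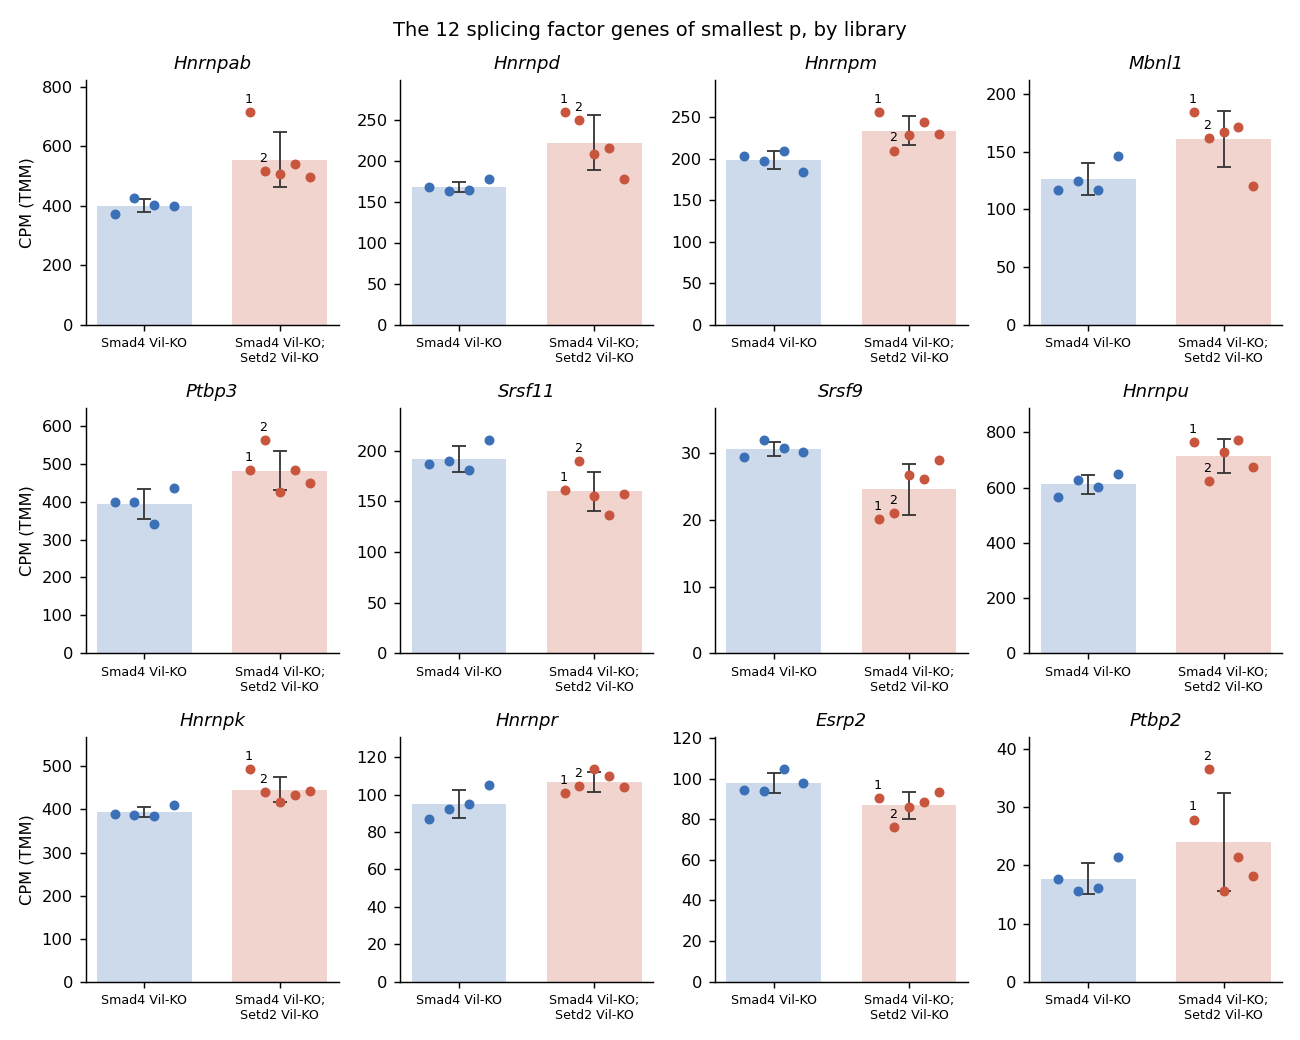
CPM of the 12 splicing factor genes of smallest p in each library (points), with bars for the mean and error bars for 1 SD, in 4 libraries of Smad4 Vil-KO and 5 of Smad4 Vil-KO;Setd2 Vil-KO, all axes starting at 0. The numbers 1 and 2 mark double-knockout replicates 1 and 2, which hold the 2 highest values of Hnrnpd and Ptbp2 and the 2 lowest of Srsf9, while Hnrnpab, Hnrnpd and Hnrnpk (higher in the double knockout) and Srsf9 and Esrp2 (lower) are separated between the genotypes.

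No SR protein gene was called by edgeR over the 9 libraries or by DESeq2, and limma-voom called Srsf11 lower (-0.33, adjusted p = 0.0198). The 2 of smallest p were lower in mean. Srsf11 had values of 186.7, 190.0, 181.1 and 210.4 CPM in Smad4 Vil-KO libraries and of 161.6, 189.9, 155.4, 136.8 and 156.8 CPM in double-knockout libraries (log2 fold change -0.26, SE 0.10, edgeR adjusted p = 0.0926). Only replicate 2 of the double knockout reached the Smad4 Vil-KO range, and without replicates 1 and 2 the log2 fold change was -0.35 (adjusted p = 0.0196). It was called as well without replicate 2 alone (-0.33, adjusted p = 0.0326) and in the libraries without Y-linked counts (-0.39, adjusted p = 0.0203). With a term for Y-linked counts it was -0.39 and not called (adjusted p = 0.0558). Srsf9, one of the shorter SR proteins, was at 29.4, 31.9, 30.8 and 30.2 CPM and at 20.1, 21.03, 26.7, 26.1 and 28.9 CPM (-0.32, SE 0.12, adjusted p = 0.0983). Its groups did not overlap, with replicates 1 and 2 lowest, and without these the value was -0.16 (adjusted p = 0.211), while it was called without double-knockout replicate 5 (-0.37, adjusted p = 0.0496). The other 8 tested SR protein genes ran from -0.21 (Srsf7) to 0.22 (Srsf5). Srsf2, also known as SC35 and used to stain nuclear speckles, differed by 0.05 (SE 0.08, 95% interval of the fold 0.913 to 1.17), and Srsf3 by -0.01 (SE 0.10, 95% interval 0.859 to 1.16). Srsf12 had 1, 2, 1 and 4 counts in Smad4 Vil-KO libraries and 1, 4, 3, 1 and 0 in double-knockout libraries, too few for a comparison. The SR-like factors Tra2a and Tra2b, which bind purine-rich exons, had log2 fold changes of -0.17 (SE 0.14, adjusted p = 0.446) and -0.06 (SE 0.10, adjusted p = 0.697), and both changed sign without double-knockout replicates 1 and 2 (0.02 and 0.02).

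Among the PTB, MBNL, RBFOX and ESRP genes edgeR called none over the 9 libraries, DESeq2 called Mbnl1 (adjusted p = 0.0394) and Ptbp3 (0.0351) higher, and limma-voom Mbnl1 (0.0376). The PTB proteins bind pyrimidine-rich RNA and mostly repress exons. Ptbp3 was at 398.2, 399.7, 341.9 and 437.2 CPM and at 484.3, 562.5, 426.9, 482.8 and 449.9 CPM (log2 fold change 0.29, SE 0.10, edgeR adjusted p = 0.0890), with replicate 2 highest and replicate 3 inside the Smad4 Vil-KO range. Ptbp1 ran from 336.9 to 376.1 CPM and from 339.5 to 455.0 CPM (0.07, SE 0.10, adjusted p = 0.672). Ptbp2 was at 17.7, 15.7, 16.1 and 21.5 CPM and at 27.9, 36.7, 15.6, 21.4 and 18.3 CPM (0.44, SE 0.23, adjusted p = 0.222), so that replicates 1 and 2 alone lay above the rest. Without these 2 its log2 fold change was 0.06 (adjusted p = 0.805). Mbnl1, a muscleblind protein that regulates exons during differentiation, was at 116.3, 124.8, 117.1 and 146.0 CPM and at 184.5, 162.0, 167.0, 171.0 and 120.6 CPM (0.35, SE 0.12, adjusted p = 0.0795). Replicate 5 lay among the Smad4 Vil-KO libraries, the other 4 above all of them, and without replicate 5 the value was 0.45 (adjusted p = 0.0101). With a replicate block, which drops replicate 5, it was 0.46 (adjusted p = 0.0340). Mbnl2 ran from 186.0 to 229.0 CPM and from 207.6 to 252.9 CPM (0.14, SE 0.09, adjusted p = 0.285). Esrp1 ran from 343.7 to 369.9 CPM and from 353.3 to 412.6 CPM (0.12, SE 0.08, adjusted p = 0.312). Esrp2 was at 94.4, 94.0, 104.9 and 97.6 CPM and at 90.4, 76.2, 85.8, 88.7 and 93.5 CPM (-0.17, SE 0.08, adjusted p = 0.169), the groups being separated by a small margin. Rbfox2 had a log2 fold change of 0.01 over levels of 52.1 to 62.1 CPM and 42.9 to 71.3 CPM.

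Double-knockout replicates 1 and 2 lay apart together for part of these genes, as they did over all genes tested. For 15 of the 40 (37.5%) both lay above, or both below, the range of the other 7 libraries, near the 30.1% of all genes. They were above for Esrp1, Hnrnpd, Hnrnpl, Hnrnpul1, Ptbp2, Ptbp3, Rbfox2, Srsf5 and Srsf6, and below for Hnrnpa2b1, Hnrnph3, Hnrnpul2, Srsf7, Srsf9 and Tra2a. Hnrnph3, for instance, was at 23.8 and 28.1 CPM in these 2 libraries and at 37.7 to 47.7 CPM in the other 7. With both left out, the median log2 fold change of the 40 was 0.07, 29 of 40 kept their direction (Hnrnph3 went from -0.18 to 0.08 and Rbfox2 from 0.01 to -0.22), and the calls were Hnrnpab and Hnrnpm higher and Srsf11 lower.

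**Figure D4:**
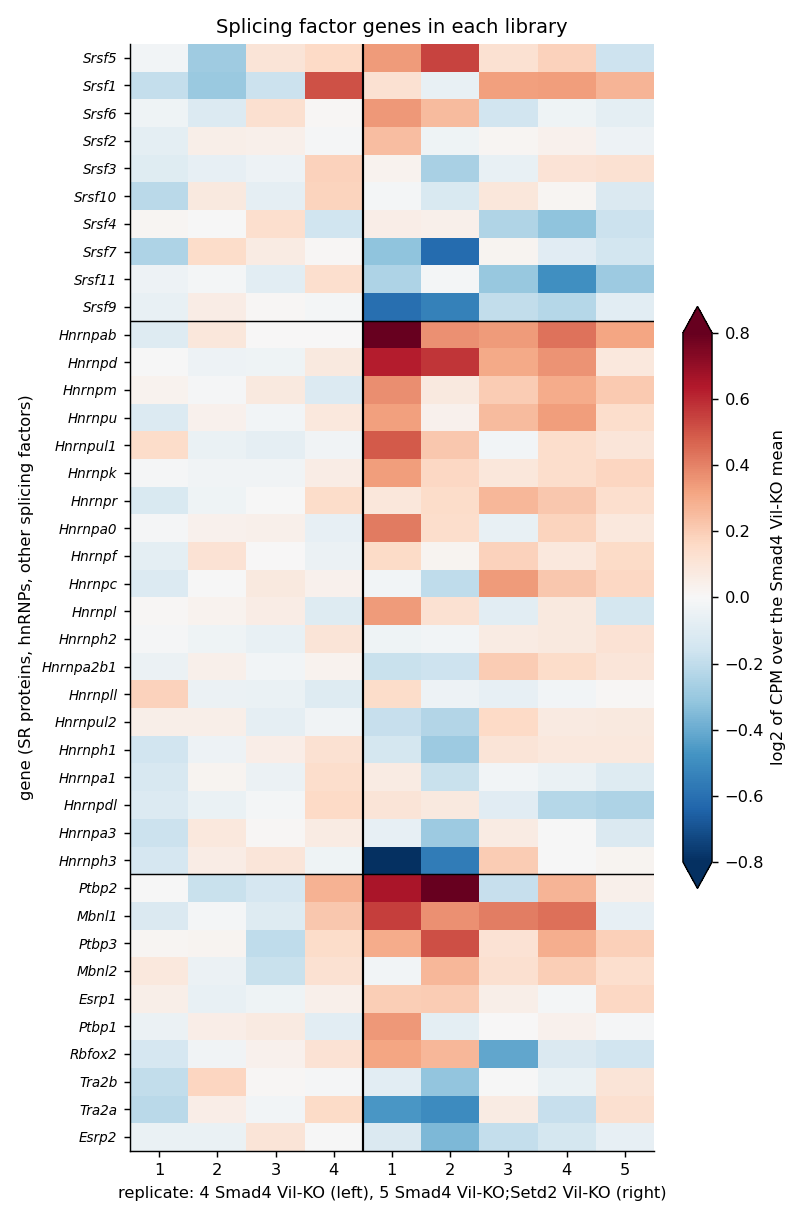
Log2 of CPM over the Smad4 Vil-KO mean (colour) for the 40 tested splicing factor genes (rows, by family) in the 9 libraries (columns, Smad4 Vil-KO left and Smad4 Vil-KO;Setd2 Vil-KO right of the line). Double-knockout replicates 1 and 2 share strong colours that replicates 3 to 5 lack for Hnrnph3 and Tra2a, while for Rbfox2 they are above the Smad4 Vil-KO mean and replicates 3 to 5 below it.

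Ratios of paralogs within a library do not depend on its scaling. Of 6 pairs examined, 2 differed between the genotypes by an exact two-sided permutation test over the 9 libraries, both with p = 0.0159, the smallest that 4 against 5 libraries allow, and 0.0476 after Benjamini-Hochberg adjustment over the 6 pairs. Hnrnpd and Hnrnpdl are neighbours on chromosome 5, 54.6 kb apart on the same strand. Counts of Hnrnpd per count of Hnrnpdl were 0.734, 0.689, 0.672 and 0.646 in Smad4 Vil-KO libraries and 0.981, 0.965, 0.896, 1.03 and 0.858 in double-knockout libraries. The groups did not overlap, and the mean log2 ratio rose from -0.55 ± 0.08 to -0.08 ± 0.10 (SD, n = 4 and 5), a difference of 0.46. Hnrnpdl itself was at 228.3 to 274.2 CPM and 207.4 to 264.5 CPM (log2 fold change -0.07, SE 0.10, adjusted p = 0.671). Esrp1 per Esrp2 was 3.92, 3.65, 3.34 and 3.77 in Smad4 Vil-KO libraries and 4.54, 5.41, 4.30, 3.98 and 4.29 in double-knockout libraries, again without overlap, and the difference in mean log2 ratio was 0.29. Each adjusted p of 0.0476 needed both pairs at the smallest p. With 1 library left out the smallest p the design allows is 0.0286 or 0.0357 and neither pair passed after adjustment (smallest adjusted p 0.0571 to 0.107). At that smallest p 2 of 6 pairs adjust to 0.0857 or 0.107, so these fits could not keep the calls. The differences then ran from 0.43 to 0.50 for Hnrnpd over Hnrnpdl and from 0.22 to 0.33 for Esrp1 over Esrp2. The other 4 pairs overlapped between the genotypes, with differences in log2 ratio of -0.23 for Ptbp1 over Ptbp3 (exact permutation p = 0.175, adjusted 0.349), -0.12 for Tra2a over Tra2b (0.302, adjusted 0.362), 0.20 for Mbnl1 over Mbnl2 (0.254, adjusted 0.362) and 0.05 for Hnrnpl over Hnrnpll (0.540, adjusted 0.540).

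**Figure D5:**
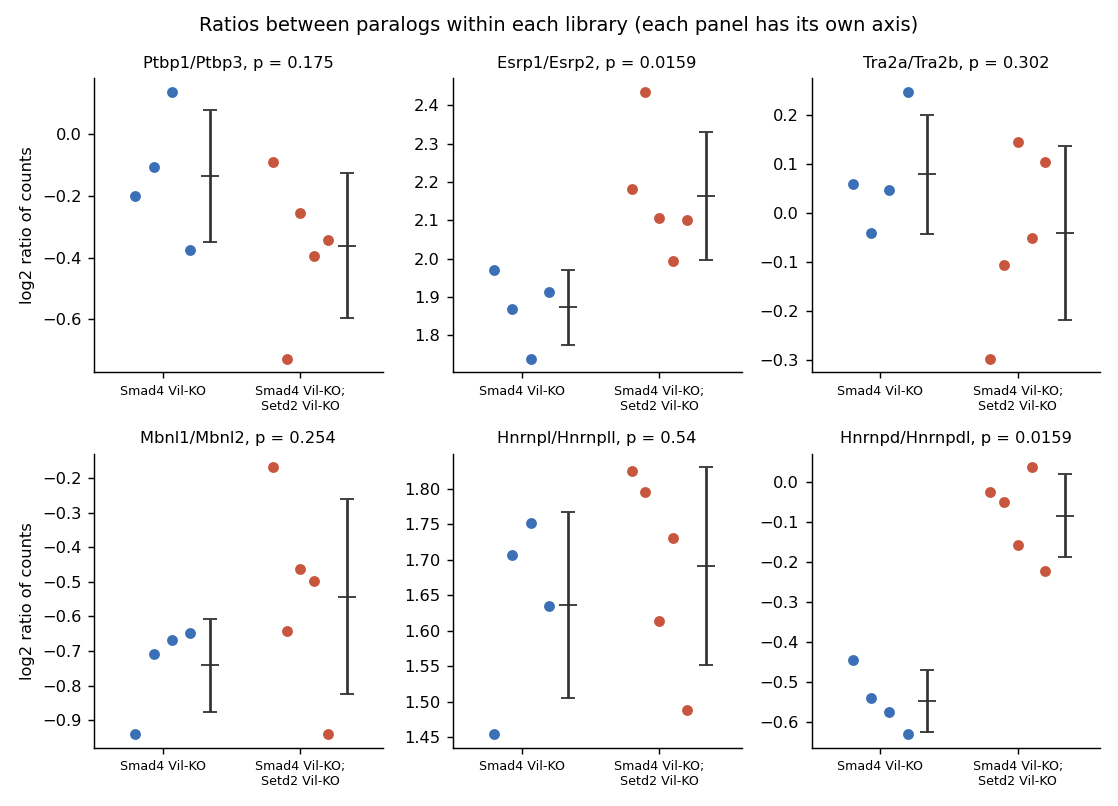
Log2 ratio of the counts of paralogs within each library (points) in 4 libraries of Smad4 Vil-KO and 5 of Smad4 Vil-KO;Setd2 Vil-KO, with the mean and 1 SD beside them and the exact permutation p above; each panel has its own vertical axis, which does not start at 0. Esrp1 over Esrp2 and Hnrnpd over Hnrnpdl are separated between the genotypes, and the other 4 pairs overlap.

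Near-identical copies could draw reads away from some of these genes. For 12 of the 41, other annotated genes, mostly processed pseudogenes, shared a stretch of at least 200 bases at 95% identity and had a row of their own in the table. Copies held 54.7% of the combined counts for Hnrnpa3, 34.8% for Hnrnpa1, 20.9% for Srsf3 and 10.4% for Hnrnpk, and at most 3.18% for the other 8. The largest single copy was Gm10052 of Hnrnpa1 (7005 counts over the 9 libraries). With copies added, the log2 fold change of Hnrnpa3 went from -0.08 to 0.05 (adjusted p = 0.711), that of Hnrnpa1 from -0.06 to 0.01 (0.970) and that of Srsf3 from -0.01 to 0.06 (0.720), and the 2 calls stood. Levels of these 3 genes are therefore uncertain where their own row is read alone. Neither Hnrnpab nor Hnrnpd had such a copy.

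A property that the naming rule did not use is the annotation of unproductive transcripts. GENCODE lists at least 1 transcript subject to nonsense-mediated decay for 24 of the 40 tested genes (60.0%), against 30.7% of the 7265 protein-coding genes at 20 CPM or more. It lists retained-intron transcripts for 31 of 40 (77.5%), against 64.5%. Among Srsf genes 9 of 11 had a nonsense-mediated decay transcript and among Hnrnp genes 10 of 20, Hnrnpd with 4 such transcripts and Hnrnpab with none. The median log2 fold change was 0.04 for the 24 genes and 0.12 for the other 16. Productive and unproductive transcripts cannot be told apart in counts per gene.

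The genes that act with these factors were compared through 6 lists, which together had 6 genes higher and 12 lower of 122 tested. These shares, 4.92% and 9.84%, stand beside 6.76% and 6.54% of all genes tested. Across fits that left out 1 library the totals ran from 1 (without Smad4 Vil-KO replicate 1 or 3) to 12 higher (without double-knockout replicate 5) and from 6 (without Smad4 Vil-KO replicate 3) to 14 lower (without double-knockout replicate 5). Of 7 tested kinases of SR proteins 1 was called, Clk2, which fell, with a range of 8.07 to 11.5 CPM in Smad4 Vil-KO and of 5.17 to 7.10 CPM in double-knockout libraries (log2 fold change -0.66, SE 0.16, edgeR adjusted p = 0.0232). Its call was lost without Smad4 Vil-KO replicate 2 (-0.63, adjusted p = 0.0646) or 3 (-0.56, 0.0873), without double-knockout replicate 4 (-0.62, 0.0541) and with the replicate block (-0.67, 0.0699), at fold changes of similar size. The median of the list was -0.05, against -0.00 over all genes. Of 22 SR-related proteins 4 fell and 1 rose (median -0.02). Scaf1, which binds the tail of RNA polymerase II, fell by 0.38 on the log2 scale (adjusted p = 0.00756). Srrm2, a scaffold of nuclear speckles, was at 894.8 to 944.0 CPM and 672.4 to 750.9 CPM (-0.37, SE 0.07, adjusted p = 0.0107). The U1 snRNP protein gene Snrnp70 (-0.33, adjusted p = 0.0266) and the U1-associated Luc7l (-0.30, adjusted p = 0.0413) fell too. Scaf11, named beyond the limit of 4 genes per list, was the 1 that rose (0.33, adjusted p = 0.0498). In 13 of 20 alternatives no gene of this list was called higher, and Scaf11 was at 0.19 (adjusted p = 0.316) once Y-linked counts entered and at 0.21 (0.0923) without double-knockout replicates 1 and 2. For all 5 of these SR-related genes the genotypes did not overlap (8.34% of all genes did not with the double knockout higher, 8.87% with it lower). The 5 were chosen by their call in the same libraries, so this adds no support to it. When 1 library was left out 2 to 4 of the list were lower and 0 to 1 higher, with 2 lower without replicate 3 or 4 of either genotype, and with the replicate block 1 was lower and 0 were higher.

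Of 40 core spliceosome genes 0 fell and 1 was called higher, Snrnp40 (log2 fold change 3.82, adjusted p = 0.0462), on very low levels of 0 to 0.476 CPM and 0.512 to 10.6 CPM, where double-knockout replicate 5 held 137 counts. It was not called with the term for Y-linked counts (adjusted p = 0.346) or without any 1 Smad4 Vil-KO library (0.0712 to 0.129), and it did not pass the filter without double-knockout replicate 2, 3, 4 or 5. The list had 0 to 5 genes higher and 0 to 2 lower when 1 library was left out, the most without double-knockout replicate 5. DESeq2 called 4 of its genes higher and 1 lower, and limma-voom 3 higher and 4 lower. The median of this list was 0.08. Among 15 tested genes of nonsense-mediated decay and the exon junction complex (median 0.13), Magoh, a core subunit of that complex, rose. It ran from 35.2 to 38.9 CPM and from 40.7 to 59.5 CPM (0.44, SE 0.11, adjusted p = 0.0222). Its call was lost without any 1 Smad4 Vil-KO library and with a term for Y-linked counts (0.40, adjusted p = 0.0963). In the libraries without Y-linked counts alone the call stood (0.41, adjusted p = 0.0115). Its log2 fold change stayed between 0.38 and 0.52 in the fits that left out 1 library. Dhx34, a helicase of the decay pathway, fell, with ranges of 15.6 to 18.8 CPM and 9.07 to 11.7 CPM (-0.71, SE 0.12, adjusted p = 0.00394). Of 33 tested other regulators of splicing 3 rose and 5 fell (median 0.05). Leaving out 1 library gave 1 (without Smad4 Vil-KO replicate 1 or 3) to 5 higher (without double-knockout replicate 5) and 2 (without Smad4 Vil-KO replicate 3) to 5 lower, and the term for Y-linked counts gave 1 higher and 2 lower. Khsrp (-0.53, adjusted p = 0.00462), Khdrbs1, which encodes SAM68 (-0.42, adjusted p = 0.00934), and Rbm6 (-0.38, adjusted p = 0.0167) were among those that fell, and Celf2 rose by 1.12 (adjusted p = 0.0124). Matr3, which also rose (0.28), and the other 2 that fell, Rbm24 (-1.85) and Rbm5 (-0.27), were named after their values were seen. Of 5 tested readers of trimethylated lysine 36 that are linked to splicing, 1 fell, Hdgfrp2 (-0.55, SE 0.09, adjusted p = 0.00454), and the list's median was 0.09.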

How the data were processed

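RNA from IECs of 9 mice was sequenced, 4 of the single and 5 of the double knockout, and each library took its genotype and replicate from its label. The authors deposited whole-number counts per gene symbol, not normalised and not pooled. The submitters' processing notes name HISAT2 2.0 and mm10, while the counting program, the annotation and the use of strand are not given in the sources used here. The table's 27 symbols that had turned into dates stayed in the totals.

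The filterByExpr function of edgeR 4.0.16 left 14593 genes, which were scaled by TMM and tested with edgeR's quasi-likelihood test under R 4.3.3, over all 9 libraries without covariates, with Benjamini-Hochberg adjustment over all genes tested. Intervals are 95% and use the test's degrees of freedom, and the SE divides the log2 fold change by the square root of the F statistic. The procedure was tested on simulated counts. The p-values measure the spread between the mice sequenced. The precision of low genes is limited by counting error, which the test includes. Ratios of paralogs used counts plus 1 and exact permutation tests (scipy 1.17.1). Gene positions, exon lengths and transcript kinds came from GENCODE release M21 (GRCm38, the mm10 assembly), near-identical copies from its transcripts with BLAST 2.17.0, and promoters from RefSeq. Matches by symbol covered all 41 genes in GENCODE and 35 in the promoter table.

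The genes and lists were chosen with earlier results of these data known. Named were Setd2 and Smad4, the 12 splicing factors of smallest p, all genes of the 6 paralog pairs and, of each list, up to 4 called genes of smallest p. Scaf11, Matr3, Rbm24, Rbm5 and Apoa1 are named beyond this limit. Other splicing factors are given by level or log2 fold change. The alternatives were DESeq2 1.42.0, limma-voom (limma 3.58.1), other scaling and filters, each library left out, a replicate block and the Y-linked counts. Leaving out double-knockout replicates 1 and 2 together, and adding the counts of copies, were chosen after seeing the data. One gene of the lists is not reported here by name. Other data of the study were not analysed here.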

Additional observations from a re-analysis of the deposited data

Results flagged for a closer look

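A library far from the others of its genotype was looked for in 80 sets of values, the 40 tested splicing factor genes in each genotype, with Dixon's ratio at the 95% level, which flags about 1 set in 20 by chance. It marked 4 of the 80 sets, a share of about that size. In double-knockout replicate 1, Hnrnpab was at 716.9 CPM, against 498.3 to 542.0 CPM in the other 4 double-knockout libraries. In the same library Ptbp1 was at 455.0 CPM, against 339.5 to 366.7 CPM, and Srsf2 was at 380.8 CPM, against 312.9 to 329.5 CPM. Srsf1 was at 9.035 CPM in Smad4 Vil-KO replicate 4, against 5.16 to 5.64 CPM in the other 3 Smad4 Vil-KO libraries, at a count of 114. Of the 4 marks 3 fell in double-knockout replicate 1, and values of different genes in 1 library are not independent. That library also had the highest share of its counts in splicing factor genes (1.08%) and the highest sum of proliferation markers (2279 CPM). The part of these in the marked values was not tested.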

How the results depend on the processing

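The number of splicing factors called was unstable. DESeq2 called 7 higher, limma-voom with quality weights 5 higher and 1 lower (of 2924 genes called), the libraries without Y-linked counts alone 5 higher and 1 lower (2930 genes), and a fit with a term for Y-linked counts 0 higher (1285 genes, against 1941). Without double-knockout replicates 1 and 2 there were 2 higher and 1 lower. With 1 library left out, 0 to 3 were higher and 0 to 1 lower, and 847 (without Smad4 Vil-KO replicate 3) to 2696 genes (without double-knockout replicate 5) were called in all. In these 20 alternatives 10 splicing factors were called at least once, all of them also named in the report or, for Hnrnpc, called only in the libraries without Y-linked counts (0.29, adjusted p = 0.0458). The paralog ratios kept 2 calls with other pseudocounts and had 0 without any 1 library. There the smallest p possible is 0.0286 or 0.0357, at which 2 of 6 pairs cannot pass after adjustment. DESeq2 size factors, library size alone, the 2 other filters and the copies gave 2 higher and 0 lower.

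The replicate block, which drops double-knockout replicate 5, also gave 2 higher, Hnrnpd (log2 fold change 0.48) and Mbnl1 in place of Hnrnpab (0.51, adjusted p = 0.0542), with 1581 genes called. Libraries of the same number correlated at -0.12, -0.13, 0.02 and 0.08 in their deviations, so the numbers did not pair them.

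Without double-knockout replicates 1 and 2, 11 of the 40 splicing factors turned sign. Among the genes followed through every alternative (Setd2, Smad4, the 12 of smallest p and the paralog pairs), the values that turned are these. Without double-knockout replicates 1 and 2, Tra2a was at 0.0156, Tra2b at 0.0235, Hnrnpl at -0.0408, Hnrnpll at -0.0212 and Smad4 at -0.12. With the Y-linked term Hnrnpl was at -0.003, Hnrnpll at -0.0438 and Smad4 at -0.71. In the libraries without Y-linked counts Hnrnpll was at -0.0398 and Smad4 at -0.70. Hnrnpll was at -0.0021 with limma-voom and -0.0109 with no filter, and Smad4 at -0.18 with limma-voom and -0.13 with the block. With 1 library left out, Ptbp1 ran from -0.0095 to 0.104, Hnrnpll from -0.029 to 0.0808, Smad4 from -0.11 to 0.37 and the log2 ratio of Hnrnpl to Hnrnpll from -0.007 to 0.10. The cause was not tested. Depth limits Srsf1 and Srsf12 most.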
